A study of Mus musculus with 14 samples.

Results

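The genes of the receptors for glutamate, GABA and glycine were examined in ribosome-bound and total RNA of the mouse brainstem. Members were chosen by gene symbol alone, with no measured value, and 51 of the 55422 entries of the count table were taken. They fall into 14 classes: AMPA, delta, kainate and NMDA receptor subunits, the metabotropic glutamate receptors of groups I, II and III, the alpha, beta and gamma subunits of GABA-A receptors, the other GABA-A subunits (delta, epsilon, pi and theta), the rho subunits, the GABA-B receptors and the glycine receptor subunits. The study infused P364S mutant human tau, or EYFP (enhanced yellow fluorescent protein) as control, into the locus coeruleus of mice aged 2 to 3 months. This small brainstem nucleus holds noradrenergic neurons that project through the forebrain. All 7 animals, the controls included, carried TH-Cre and Slc6a2-eGFP/Rpl10a on a C57Bl/6 background. Cre is thus driven by the promoter of tyrosine hydroxylase, and a ribosomal protein with a green fluorescent tag by that of Slc6a2, the noradrenaline transporter. Ribosomes that carry the tag can be immunoprecipitated (IP) with the RNA they hold, and a total homogenate was kept before that step (pre-IP). The tau group had 4 animals (B, C, L and M) and the EYFP group 3 (H, I and K), and each animal gave 1 IP and 1 pre-IP library, 14 libraries in all. By label, B, L and I were male and C, M, H and K female.

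Ionotropic glutamate receptors are cation channels. AMPA receptors carry most fast excitatory transmission, NMDA receptors pass calcium when glutamate and a co-agonist bind at a depolarised membrane, and kainate and delta receptors modulate synapses. GABA-A and glycine receptors are pentameric chloride channels that inhibit neurons, and their subunit mix sets their location, kinetics and drug sensitivity, whereas metabotropic glutamate receptors and GABA-B receptors act through G proteins. Locus coeruleus neurons are driven by glutamate and restrained by GABA and glycine inputs, and they are known for GABA-A receptors that hold the uncommon epsilon and theta subunits.

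Libraries held 41843489 to 65664551 counts, and levels are given as CPM, counts per 1000000 of the library total after TMM scaling (trimmed mean of M-values, a normalization in edgeR). The marker check showed how far the IP reached its target. The summed level of 12 noradrenergic genes was 413 to 463.5 CPM in the tau pre-IP and 381 to 492 CPM in the EYFP pre-IP libraries. It was 541 to 630 CPM in the EYFP IP libraries. In the tau IP libraries it was 8463 CPM in B, 4249 in C, 3548 in L and 1082 in M. The mean log2 ratio of IP to pre-IP of these markers was 3.39 ± 1.26 (SD, n = 4) with tau and 0.73 ± 0.11 (SD, n = 3) with EYFP, and none of the markers was at 0. Markers of other cell types stayed in the IP, with 6 oligodendrocyte genes summing to 4265 to 10460 CPM in tau IP and 8432 to 12990 CPM in EYFP IP. Some libraries stood apart: animal K, infused with EYFP, had 408 pre-IP and 398 IP counts of the tau construct against 2 to 18 in H and I, the IP RNA of I had an integrity number of 4.2 where all others had at least 7.7, and M is labelled female although 4 Y-linked genes summed to 674 counts in its pre-IP and 1153 in its IP library. In bulk RNA of this kind, fewer cells of a type and less RNA per cell cannot be told apart. In the IP libraries the recovery by the IP enters as well, and its part was not tested.

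Receptor classes were first compared between IP and pre-IP, in a model of the 14 libraries that also held treatment. The RNA measured 0.1 to 2.8 ng/µl in the IP and 11.4 to 29.9 ng/µl in the pre-IP samples. RNA amount and fraction can therefore not be told apart in this comparison. Of the 48 members that passed the filter on low counts, 15 were higher and 7 lower in IP (edgeR quasi-likelihood F test, Benjamini-Hochberg adjusted p below 0.05), which is 45.8%. Over all 18792 genes tested the share was 31.0%, with 16.3% higher and 14.7% lower. Members higher in IP were found among the AMPA, delta, NMDA, group III metabotropic, GABA-A and glycine classes. The median log2 fold change was 0.13 over the members and -0.00 over all genes. The other 3 members had almost no reads: Gabrp, the GABA-A pi subunit, had 0 counts in every library, while Grm6, the metabotropic receptor of retinal bipolar cells, had at most 4 counts and the rho subunit gene Gabrr3 at most 6 counts in a library. Leaving out animal C or animal L lowered the count to 14 or 13 members, 9 of them higher in IP in either case, and leaving out any other animal, K, I and M included, gave 19 to 21. With the animal as a block 22 were called again (32.6% of all genes), 19 of them in both fits. Tau animals alone gave 16 calls (20.7% of all genes) and EYFP animals alone 8 (6.38%), while library numbers up to 11 gave 8 (11.1%) and those from 17 gave 17 (25.5%). All IP libraries lay above all pre-IP libraries for 4 members, Gria3, Grid1 and Grin2a among them (8.33% of members; 4.26% of all genes), and below them for Gabbr1 (2.08% of members; 5.45% of all genes).

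**Figure D1:**
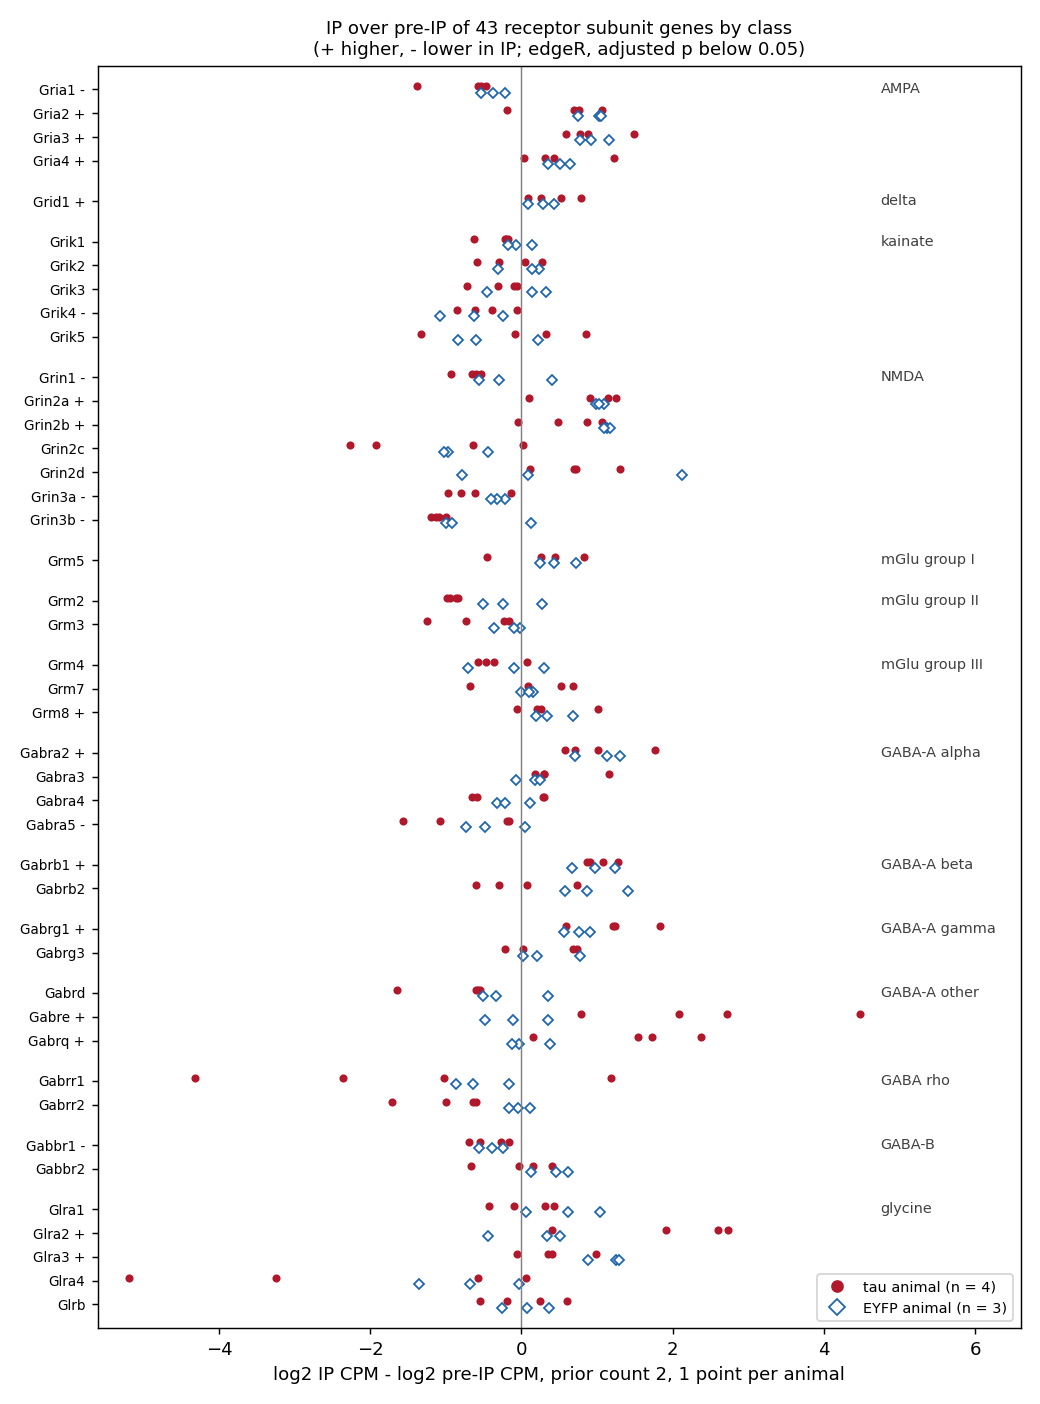
Log2 ratio of IP to pre-IP CPM (horizontal axis, prior count 2) for 43 receptor genes that passed the filter, 1 point per animal, grouped by class, with tau animals as filled circles and EYFP animals as open diamonds. Gria3, Grin2a, Gabra2, Gabrb1 and Gabrg1 were above 0 in all 7 animals, whereas Gabre, Gabrq and Glra2 were at 1.55 to 4.48 in tau animals B, C and L and at most 0.78 in the other 4 animals.

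The AMPA class was the only one with all tested members called, and its subunits moved in opposite directions. Gria1 (GluA1; chromosome 11, 57011387 to 57330244 in GRCm38) had IP levels of 42.3, 85.3, 84.3 and 75.7 CPM in B, C, L and M and of 124.5, 91.9 and 76.4 CPM in H, I and K. Its pre-IP levels were 110.1, 123.4, 116.6 and 112.2 CPM in the tau animals and 144.9, 133.1 and 99.2 CPM in the EYFP animals. Gria1 was thus lower in IP in each of the 7 animals, by 0.54 on the log2 scale in the fit (log2 fold change -0.54, SE 0.16, edgeR adjusted p 0.0152). Gria3 (GluA3; X chromosome, 41400854 to 41678601) did the reverse, with 33.6, 30.8, 40.1 and 27.3 CPM in tau IP and 34.6, 39.8 and 28.8 CPM in EYFP IP. The pre-IP libraries held 19.7, 16.7, 14.2 and 18.2 CPM of it in tau and 15.4, 21.1 and 16.9 CPM in EYFP animals, so the fractions did not overlap. Its log2 fold change was 0.95 (SE 0.12, edgeR adjusted p 7.59e-05). Gria2 had 43.9, 83.8, 87.0 and 57.2 CPM in tau IP and 113.2, 98.0 and 69.7 CPM in EYFP IP, against 33.7 to 58.2 CPM in the homogenates. This gene, whose edited product makes AMPA receptors impermeable to calcium, was higher by 0.76 (SE 0.18, edgeR adjusted p 0.00407) and in 6 of 7 animals, the exception being B. Gria4, at 45.9 to 66.9 CPM in IP and 28.6 to 52.3 CPM in pre-IP, was higher by 0.50 (SE 0.13, edgeR adjusted p 0.00679) and in all 7 animals. Tau animals alone gave calls for Gria1 and Gria3, and EYFP animals alone for Gria2 and Gria3. Gria4 passed in neither treatment alone (edgeR adjusted p 0.125 with tau and 0.0645 with EYFP). With library numbers up to 11, Gria3 was the only AMPA gene called.

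Because reads scale with transcript length, levels of different subunits were compared only as CPM per kilobase of exon. On that scale Gria1 made up 64.2% ± 4.95 of the AMPA class in tau pre-IP (SD, n = 4) and 63.4% ± 2.51 in EYFP pre-IP (SD, n = 3). In IP its share was 41.6% ± 6.95 in tau and 45.1% ± 5.10 in EYFP animals. The share was lower in IP in 7 of 7 animals, on average by 20.7 percentage points (difference -20.7, SD 4.47, n = 7). The shares of Gria2, Gria3 and Gria4 were each higher in IP in 7 of 7 animals, by 6.40, 5.39 and 8.94 points. IP libraries of both treatments therefore showed a flatter mix of AMPA subunits than the homogenate. Whether this mix belongs to the tagged neurons was not tested.

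Among NMDA receptor genes the glutamate-binding GluN2A and GluN2B subunits were higher in IP and the obligatory GluN1 subunit was lower. Grin2a (chromosome 16, 9567898 to 9995560) had 12.2, 22.9, 17.9 and 12.9 CPM in tau IP and 20.8, 20.1 and 11.9 CPM in EYFP IP. Its pre-IP levels were 11.4, 10.4, 7.47 and 6.85 CPM in tau and 10.5, 9.37 and 5.83 CPM in EYFP animals, and every IP library lay above every pre-IP library. The log2 fold change was 0.95 (SE 0.20, edgeR adjusted p 0.00186). Grin2b had 10.7, 25.04, 18.5 and 8.63 CPM in tau IP and 21.8, 26.1 and 10.9 CPM in EYFP IP, and 10.97, 11.9, 10.1 and 6.16 CPM in tau and 9.92, 11.6 and 5.09 CPM in EYFP homogenates. Only B had slightly less of it in IP, and it changed by 0.89 (SE 0.27, edgeR adjusted p 0.0204). Grin1 changed by -0.45 (SE 0.14, edgeR adjusted p 0.021), and the genes of the glycine-binding GluN3 subunits, at 19.1 to 43.4 CPM of Grin3a and 0.834 to 2.90 CPM of Grin3b in IP against 35.8 to 50.4 and 1.82 to 5.51 CPM in pre-IP, by -0.47 for Grin3a (SE 0.12, edgeR adjusted p 0.00835) and -0.90 for Grin3b (SE 0.26, edgeR adjusted p 0.0159). Grin2c had -0.80 (edgeR adjusted p 0.0917) and Grin2d 0.61 (edgeR adjusted p 0.101), and neither passed; with the animal as a block Grin2c passed (-1.006, adjusted p 0.00799). The call of Grin1 was lost without C, K, L or M (edgeR adjusted p up to 0.0713), that of Grin2b without C, H or L (up to 0.0572) and that of Grin3b without L (0.0527). In tau animals alone Grin1 had -0.708 and in EYFP animals alone -0.138 (edgeR adjusted p 0.755), where H was higher in IP, by 0.40. Per kilobase, Grin1 still made up 47.5% to 55.1% of the class in each of the 4 groups on average, and the shares of Grin2a and Grin2b were higher in IP in 7 of 7 animals, by 3.36 and 2.36 points. Exons of Grin1 and Grin3b overlap opposite-strand genes (Grin1os and Tmem259), and since no source used here states whether counting used strand, reads of the overlapping genes cannot be told apart. The same holds for Grin2b, Grin2c, Grin2d, Grm2, Grm7, Gabra5, Glra1, and Gabrb1 with Gabra4.

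No kainate receptor gene was called higher in IP, although single animals had higher values, 4 of 7 for Grik2. All 5 had negative log2 fold changes, and only Grik4, which encodes a high-affinity auxiliary type of subunit, passed (-0.54, SE 0.15, edgeR adjusted p 0.00978), at 11.1 to 19.6 CPM in IP and 18.7 to 30.3 CPM in pre-IP. The mean log2 ratio of the class was below 0 in 7 of 7 animals, at -0.24 ± 0.15 (SD, n = 7). Of the delta receptors, Grid1 was higher in IP, at 6.23 to 9.84 against 5.09 to 5.87 CPM (0.38, SE 0.13, edgeR adjusted p 0.0415). With the animal as a block the Grid1 adjusted p was 0.0638, and the call was lost without any 1 of B, C, H, I, L or M (edgeR adjusted p up to 0.111).

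Of the 7 metabotropic glutamate receptor genes tested, only Grm8 passed. Both group II members, the presynaptic autoreceptor gene Grm2 and Grm3, had negative values (-0.54 and -0.36) without passing (edgeR adjusted p 0.0676 and 0.103), although Grm2 passed with the animal as a block (adjusted p 0.0132). The group II mean was below 0 in 7 of 7 animals, at -0.75 ± 0.29 (SD, n = 4) with tau and -0.16 ± 0.13 (SD, n = 3) with EYFP. In group III, Grm8 was higher in IP, at 7.21 to 11.1 against 5.39 to 7.79 CPM (0.38, SE 0.14, edgeR adjusted p 0.0424; 0.0663 with the block; up to 0.17 without C, H, I, K or L), and Grm4 and Grm7 were not called. In group I, Grm5 had 0.41, with an edgeR adjusted p of 0.0931.

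Among GABA-A receptor genes Gabra2, Gabrg1 and Gabrb1 were higher in IP in all 7 animals, with log2 fold changes near 1; Gabre and Gabrq, whose values came from part of the animals, are described further on. Gabra2 (alpha-2; chromosome 5, 70957597 to 71095849) had 26.1, 32.5, 27.0 and 16.1 CPM in tau IP and 30.9, 24.3 and 28.8 CPM in EYFP IP, against 7.88 to 17.5 CPM in the pre-IP libraries. It was higher in IP in 7 of 7 animals, a log2 change of 1.02 (SE 0.18, edgeR adjusted p 0.00069). Gabrg1 had 38.4, 25.9, 23.6 and 15.5 CPM in tau IP and 17.8, 21.5 and 20.2 CPM in EYFP IP, and 16.2, 11.2, 6.61 and 10.3 CPM in tau and 12.1, 12.7 and 10.75 CPM in EYFP homogenates. Gabrb1 had 39.5, 41.8, 37.9 and 23.4 CPM in tau IP and 38.6, 45.9 and 19.98 CPM in EYFP IP, and 21.0, 23.0, 15.6 and 11.1 CPM in tau and 19.6, 19.4 and 12.6 CPM in EYFP homogenates. Both genes, which lie in the same cluster on chromosome 5, changed, Gabrg1 by 1.03 (SE 0.21, edgeR adjusted p 0.00153) and Gabrb1 by 1.02 (SE 0.21, edgeR adjusted p 0.0016), each in 7 of 7 animals. Gabra4 belongs to this cluster as well and had -0.28 (edgeR adjusted p 0.615), so the genes of the cluster did not all pass. Gabrg1, Gabra2, Gria3 and Grin2a kept their direction and an adjusted p below 0.05 in each of the 19 other fits tried.

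**Figure D2:**
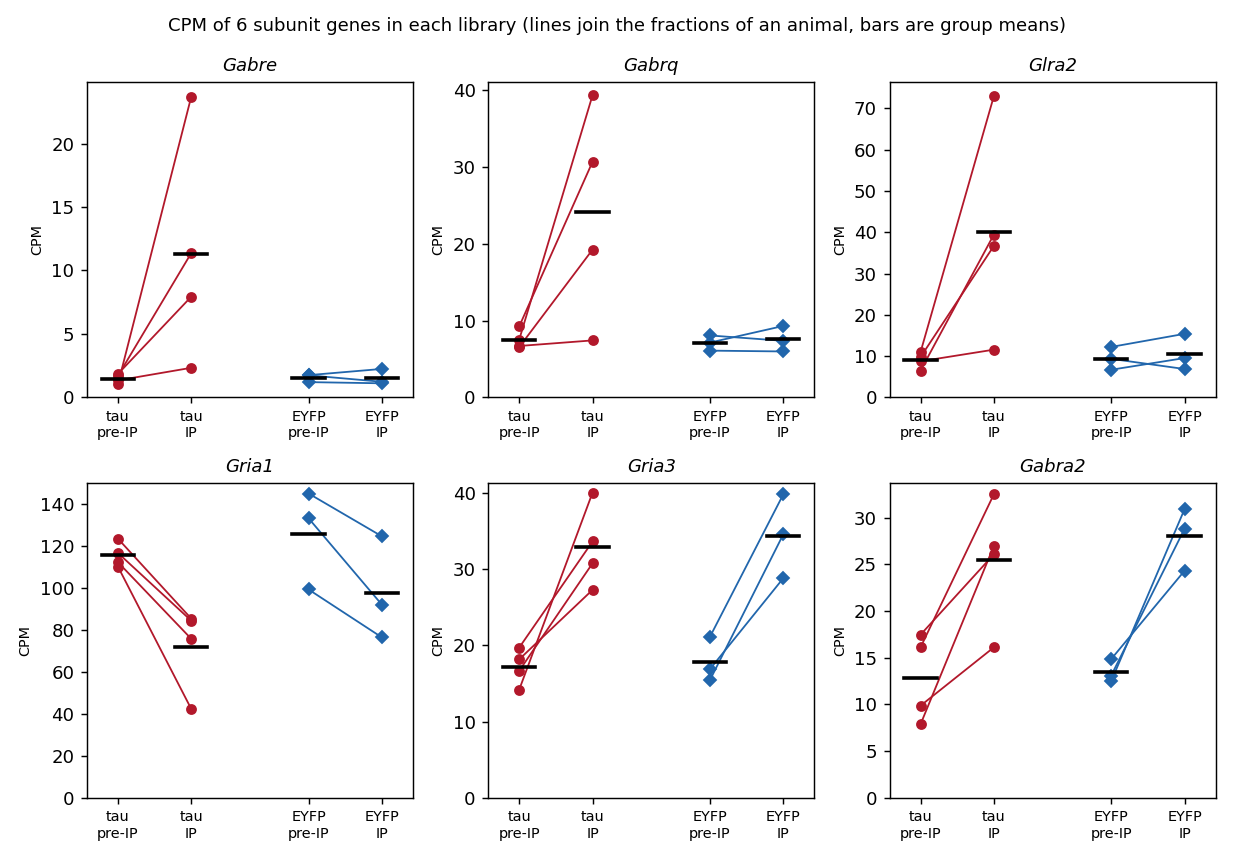
CPM of 6 receptor genes (vertical axes start at 0) in each library, tau animals as circles and EYFP animals as diamonds, with lines joining the 2 fractions of an animal and black bars at group means. Gria3 and Gabra2 were higher and Gria1 lower in IP under both treatments, whereas Gabre, Gabrq and Glra2 were highest in the IP libraries of tau animals B, C and L, at 7.94 to 23.7, 19.2 to 39.4 and 36.7 to 73.0 CPM.

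Gabra5, the alpha-5 subunit gene (chromosome 7, 57407672 to 57510059), went the other way. It had 16.2, 25.1, 41.2 and 45.4 CPM in tau IP and 34.9, 41.9 and 53.0 CPM in EYFP IP. In pre-IP it had 48.1, 53.0, 46.1 and 51.7 CPM in tau and 58.1, 58.5 and 51.0 CPM in EYFP animals. Only K had slightly more of it in IP, and the log2 fold change was -0.51 (SE 0.18, edgeR adjusted p 0.04). This call was lost without C, H, I or L (edgeR adjusted p up to 0.134), and over all alternatives the value ran from -0.925 to -0.095, the latter with library numbers from 17. In tau animals alone it was -0.65 (edgeR adjusted p 0.127) and in EYFP animals alone -0.364 (edgeR adjusted p 0.25). Within the alpha subunits, per kilobase, the share of Gabra5 was lower in IP in 7 of 7 animals, by 11.9 points on average (difference -11.9, SD 3.30, n = 7), and that of Gabra2 was higher in 7 of 7, by 3.10 points. Gabra3 just missed the threshold (0.34, edgeR adjusted p 0.0509). Gabrd, Gabrb2, Gabrg3 and the rho genes Gabrr1 and Gabrr2 were not called, although Gabrd passed with the animal as a block (-0.541, adjusted p 0.0388).

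**Figure D3:**
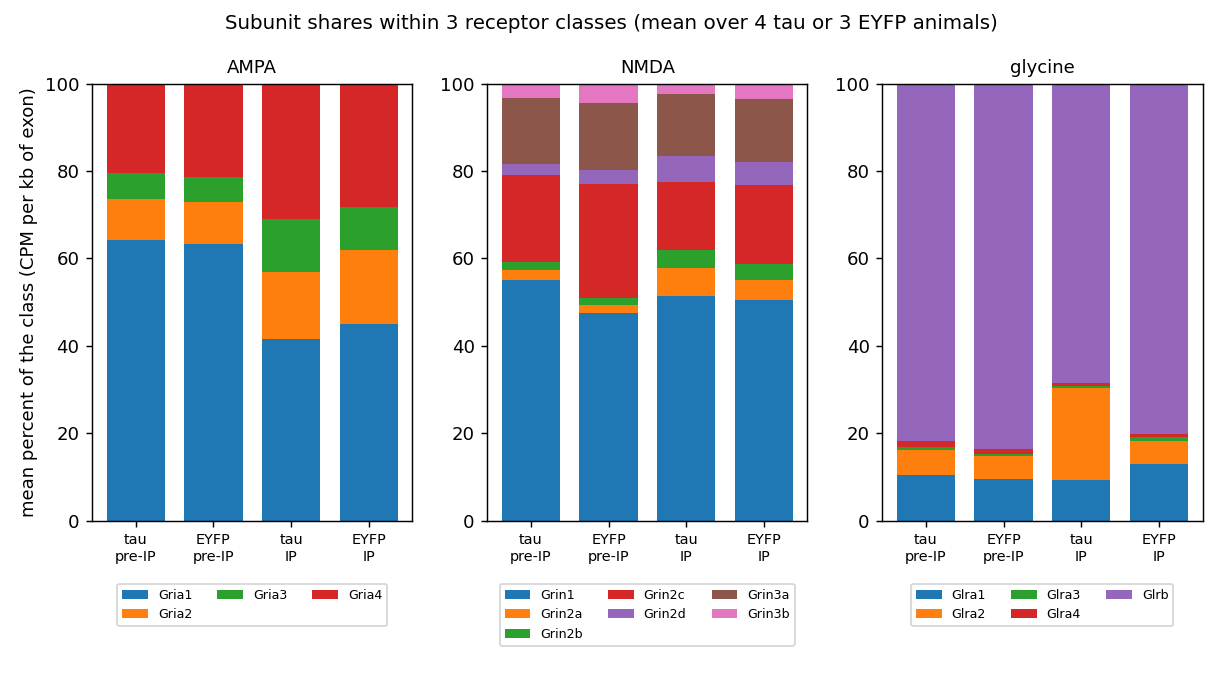
Mean share of each subunit gene in its class (percent of CPM per kilobase of exon, bars sum to 100) for AMPA, NMDA and glycine receptor genes, in tau and EYFP animals before and after IP. The Gria1 share was 64.2% and 63.4% before and 41.6% and 45.1% after IP, and the Glra2 share of the glycine class was 20.9% in tau IP against 5.35% in EYFP IP.

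Of the GABA-B receptor genes, Gabbr1, which binds GABA, had the highest level of all members per kilobase of exon, at a mean of 56.6 CPM per kilobase in IP and 75.02 in pre-IP. In CPM it measured 456, 476, 433 and 385 CPM in tau IP and 504, 456 and 366 CPM in EYFP IP, all below the 512 to 631 CPM of the pre-IP libraries. Its log2 fold change was -0.40 (SE 0.09, edgeR adjusted p 0.00442), and the value for its partner Gabbr2, needed for transport to the membrane and G protein coupling, was 0.18 (edgeR adjusted p 0.484). Among glycine receptor genes Glra3, known from dorsal horn pain circuits, was higher in IP, at 2.79 to 5.39 against 1.54 to 3.46 CPM (0.73, SE 0.22, edgeR adjusted p 0.0168). The Glra3 call was lost without H or M (edgeR adjusted p up to 0.0617), and its value was 0.41 in tau animals alone (edgeR adjusted p 0.341) and 1.13 in EYFP animals alone. The adult spinal and brainstem subunit gene Glra1 (0.27) and the anchoring beta subunit gene Glrb (0.07) were not called. Glrb made up 81.8% and 83.5% of the class per kilobase in tau and EYFP pre-IP.

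Genes that act with these receptors were read beside them. Of 44 partner genes listed (auxiliary subunits, cerebellins, scaffolds and inhibitory postsynaptic proteins), 43 were tested, and 6 were higher and 7 lower in IP, 30.2% in all, near the share over all genes. The largest changes were Cacng4, an AMPA receptor auxiliary subunit (0.95, SE 0.14, edgeR adjusted p 0.000193), and Nlgn2, the neuroligin of inhibitory synapses (0.68, SE 0.13, edgeR adjusted p 0.000951), among the higher. Homer3 (-0.70, SE 0.19, edgeR adjusted p 0.0109) and Dlgap3 (-0.69, SE 0.14, edgeR adjusted p 0.0017), both scaffolds of glutamate synapses, changed most among the lower. Cacng4 had 13.7 to 27.7 CPM in the IP and 10.3 to 13.2 CPM in the pre-IP libraries, without overlap.

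Base composition moved with these values. Across the 48 members the Spearman correlation between the log2 fold change of IP over pre-IP and the GC content of the longest transcript was -0.60, and across the 18238 of 18792 genes with a known GC content it was -0.36. The median GC content was 41.3% for the members higher in IP, 52.2% for those lower and 48.1% for those not called. With exon length the correlation was 0.42 among the members and -0.15 among all genes. These are descriptions across genes, which are not independent replicates and share the same libraries, and the part of base composition in the result was not tested.

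For 3 X-linked genes the IP level depended strongly on the animal: the highest IP library held 21.4 times the lowest for Gabre, 10.62 times for Glra2 and 6.58 times for Gabrq. Gabre (epsilon subunit; X chromosome, 72255999 to 72274803) had 23.7, 11.4, 7.94 and 2.33 CPM in the tau IP libraries of B, C, L and M, and 2.24, 1.23 and 1.11 CPM in the EYFP IP libraries of H, I and K. Gabrq (theta subunit; 72825178 to 72842602) had 39.4, 30.7, 19.2 and 7.42 CPM in tau IP and 5.98, 9.30 and 7.37 CPM in EYFP IP. Glra2 (alpha-2 glycine receptor subunit, the main form of the immature brain; 165129017 to 165327393) had 73.0, 36.7, 39.4 and 11.6 CPM in tau IP and 6.87, 15.4 and 9.52 CPM in EYFP IP. In the homogenates the ranges were 1.03 to 1.84 CPM for Gabre, 6.09 to 9.25 for Gabrq and 6.49 to 12.2 for Glra2, so B, C and L stood far above them for each gene, while M and H for Gabre and I for Gabrq and Glra2 lay just above. These were also the 3 IP libraries with the highest summed noradrenergic markers. M had 1082 CPM of those markers and the EYFP IP libraries 541 to 630 CPM. The part of this marker difference in the levels of the 3 genes was not tested.

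**Figure D4:**
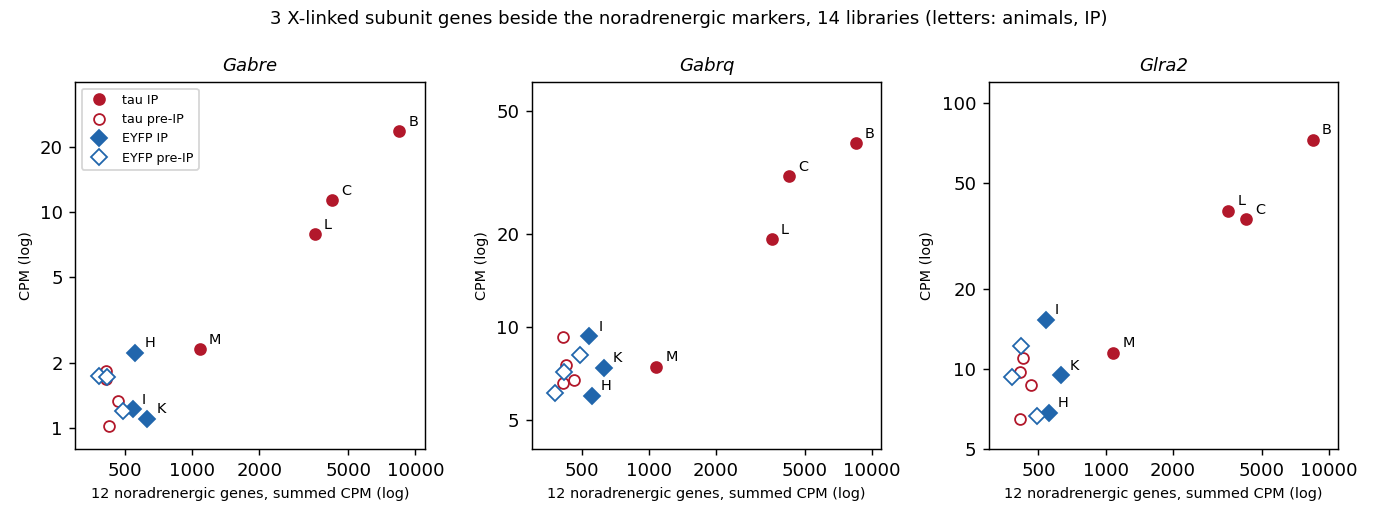
CPM of Gabre, Gabrq and Glra2 (vertical, log axis) against the summed CPM of 12 noradrenergic genes (horizontal, log axis) in the 14 libraries, filled symbols for IP with the animal's letter and open symbols for pre-IP. The IP libraries of B, C and L, at 3548 to 8463 CPM of the markers, held the highest levels of each gene, and the other 11 libraries lay lower on both axes.

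Over all 14 libraries Gabre was higher in IP by 1.73 (log2, SE 0.57, edgeR adjusted p 0.0289), Gabrq by 1.02 (SE 0.34, edgeR adjusted p 0.0297) and Glra2 by 1.33 (SE 0.41, edgeR adjusted p 0.0204). These 3 calls were less stable than those of Gria3 or Gabra2. For Gabre, Gabrq and Glra2 the adjusted p-values were 0.0728, 0.0798 and 0.0437 without B, 0.106, 0.0978 and 0.075 without C, and 0.0959, 0.0961 and 0.0822 without L. With the animal as a block Gabre was at 0.0724, while Gabrq (0.0456) and Glra2 (0.0335) passed. In the tau animals alone the log2 fold changes were 2.91, 1.66 and 2.13 (edgeR adjusted p 0.00933, 0.0183 and 0.0105), and in the EYFP animals alone -0.02, 0.09 and 0.17 (edgeR adjusted p 0.981, 0.851 and 0.792). Glra2 supplied 34.7%, 23.6%, 18.9% and 6.32% of the glycine receptor class per kilobase in the IP of B, C, L and M and 3.83% to 7.65% in the EYFP IP libraries, against 3.39% to 6.91% in the homogenates.

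Gabre and Gabrq lie in 1 cluster of the X chromosome with Gabra3 between them (72432681 to 72656848). Gabra3, an alpha subunit common in brainstem monoaminergic neurons, had 69.1, 66.2, 82.6 and 52.4 CPM in tau IP and 53.0, 60.8 and 54.4 CPM in EYFP IP. These ranges overlapped, and 36.8 to 56.2 CPM were measured in pre-IP. Its share of all GABA-A subunits per kilobase was 17.7% ± 1.49 (SD, n = 4) in tau IP and 13.3% ± 1.31 (SD, n = 3) in EYFP IP, with 14.6% ± 2.16 and 15.1% ± 1.95 in the corresponding pre-IP libraries. The lowest tau IP share, 16.2% in C, lay above the highest EYFP IP share, 14.7% in K. Gabra3 was not alone in this. The shares of Gabre and Gabrq were also higher in tau IP without overlap, and that of Gabrb2 was lower (1.75% to 2.27% against 2.76% to 3.30%). A share also depends on the levels of the other subunits.

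The 250 bases before the RefSeq start site of Gabre, Gabrq and Glra2 are shown as a description (GRCm38.p6, 5′ to 3′ on the gene's strand). In that order they lie at chrX:72274722-72274971 on the minus strand, chrX:72824928-72825177 on the plus strand and chrX:165327394-165327643 on the minus strand. The part of these sequences in the levels of the 3 genes was not tested. Capitals mark an AP-2 motif.
Gabre: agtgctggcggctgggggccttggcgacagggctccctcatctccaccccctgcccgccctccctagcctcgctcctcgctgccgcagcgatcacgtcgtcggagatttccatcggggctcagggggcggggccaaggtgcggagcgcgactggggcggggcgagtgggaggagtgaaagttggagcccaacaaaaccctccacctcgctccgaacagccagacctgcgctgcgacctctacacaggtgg
Gabrq: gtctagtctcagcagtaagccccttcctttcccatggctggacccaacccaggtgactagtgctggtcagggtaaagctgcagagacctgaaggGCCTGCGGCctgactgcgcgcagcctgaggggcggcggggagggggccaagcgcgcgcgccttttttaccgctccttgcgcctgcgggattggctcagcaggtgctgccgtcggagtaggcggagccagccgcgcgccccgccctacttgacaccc
Glra2: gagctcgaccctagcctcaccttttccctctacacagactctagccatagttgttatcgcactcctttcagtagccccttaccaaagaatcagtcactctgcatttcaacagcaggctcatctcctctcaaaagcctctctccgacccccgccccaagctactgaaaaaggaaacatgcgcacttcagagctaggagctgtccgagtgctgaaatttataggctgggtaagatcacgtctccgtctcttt
The windows of Gabre and Gabrq are rich in CpG, with 21 and 19 CpG pairs and a GC content of 68.8% and 67.2%, while that of Glra2 holds 8 pairs at 50.4%. Over the 300-base windows of the RefSeq table, which reach 50 bases past the start, the median was 7 pairs and 52.7%, and the 3 genes had 24, 23 and 9. A window was found for 35 of the 51 members, among 32851 windows. Motifs of factors used in noradrenergic neurons were searched on both strands: a palindromic pair of paired-homeodomain cores, the cyclic AMP response element (TGACGTCA) and AP-2 (GCCNNNGGC). They were present in 0.487%, 1.79% and 16.6% of all windows. Counted by gene rather than by window, with 1 to 3 windows each, 0, 0 and 7 of the 35 members held them. Of the 3 genes shown only Gabrq held one, an AP-2 match beginning 156 bases before the start. Such a match is a description of letters only.

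Tau IP was then set against EYFP IP, a comparison of the RNA that the IP recovered in each treatment. That recovery was unlike between the groups: the noradrenergic markers had a mean log2 ratio of IP to pre-IP of 3.39 with tau and 0.73 with EYFP. The part of this difference in the values below was not tested. No member passed (edgeR adjusted p below 0.05 in 0 of 48, and in 0 of 19472 genes, 0.0%). Without adjustment 10 of 48 members had p below 0.05, where 12% of all genes did. DESeq2 called 0 members and 411 genes (2.11%, with genes that it gave no adjusted p counted as not called). The highest values were those of Gabre, at 2.87 (log2, SE 0.68), Glra2, at 1.91 (SE 0.53), and Gabrq, at 1.66 (SE 0.48), with the same edgeR adjusted p of 0.318 for all 3. DESeq2 gave no adjusted p for these 3 genes, nor for Gabrb2 and Grm2, so its 0 members cannot speak to them. Without animal M, the tau animal with the fewest noradrenergic reads, all 3 passed (edgeR adjusted p 0.0247 for Gabre, 0.0377 for Glra2 and 0.028 for Gabrq). Without K or without I, 0 members passed. Over the fits that left out 1 animal the adjusted p for Gabre ran from 0.0247 to 0.636. Within the lower library numbers (up to 11; B, C, H, I) the Gabre value was 3.32, and within the higher ones (from 17; K, L, M) it was 2.20. Under the same split Glra2 had 2.29 and 1.41, and Gabrq 2.19 and 0.85. With the sex label as a covariate Gabre had 2.61, Glra2 1.66 and Gabrq 1.55 (edgeR adjusted p 0.499 for each). That label has M as female, which its Y-linked counts go against. The IP RNA measured 0.1, 0.8, 0.2 and 0.5 ng/µl in B, C, L and M and 2.8, 1.6 and 0.7 ng/µl in H, I and K; its part in these values was not tested. The 12 noradrenergic genes themselves had positive values in 12 of 12 cases, with a median of 2.81.

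Most other receptor genes had lower values in tau IP. Of the 48 members, 36 had negative log2 fold changes, and the median was -0.30 over the members and -0.08 over all genes. Without overlap between the groups, 1 member was higher in tau IP (Gabre, 2.08% of members; 8.62% of all genes) and 7 were lower (14.6% of members; 5.84% of all genes), among them Gabrb2, Glra1, Grik1, Grin1 and Grin3a. Gabrb2, a beta subunit gene of the most common GABA-A receptors (chromosome 11, 42419757 to 42629028), had 13.3, 11.6, 13.6 and 9.03 CPM in tau IP and 23.1, 24.6 and 16.6 CPM in EYFP IP. Its log2 fold change was -0.86 (SE 0.22, edgeR adjusted p 0.318), and its tau pre-IP levels of 8.20 to 17.7 CPM overlapped the 8.63 to 16.4 CPM of EYFP pre-IP. Grm2 (chromosome 9, 106643095 to 106656082) had 15.5, 14.2, 13.2 and 11.02 CPM in tau IP and 41.1, 23.1 and 15.1 CPM in EYFP IP, a log2 difference of -0.98 (SE 0.30, edgeR adjusted p 0.318). H was the highest of the EYFP libraries, and K overlapped the tau animals. Grin1 (chromosome 2, 25291181 to 25319187) had 68.7, 70.1, 77.8 and 76.8 CPM in tau IP and 130.6, 82.3 and 95.7 CPM in EYFP IP, a log2 difference of -0.50 (SE 0.18, edgeR adjusted p 0.338).

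By class, all 7 NMDA members, all 4 AMPA members and all 5 kainate members had negative values in this comparison, with medians of -0.50, -0.32 and -0.27. Of the inhibitory classes, 4 of 5 GABA-A alpha members, 4 of 5 glycine receptor members and both GABA-B members were negative, with medians of -0.235, -0.494 and -0.305. The GABA-A beta and gamma classes had 1 of 3 negative values each, with medians of 0.025 and 0.022. Partner genes had a median of -0.26, with 32 of 43 negative and 0 called. The largest positive value among them was that of Cacng3, an AMPA receptor auxiliary subunit (1.79, SE 0.44, edgeR adjusted p 0.318), chosen here after its value was seen. Cacng3 had 246, 138, 115 and 46.9 CPM in the IP of B, C, L and M and 36.6 to 42.6 CPM in the EYFP IP libraries, the same order of libraries as the noradrenergic sum among the tau animals. Beside these values, markers of other neurons (10 genes) summed to 403 to 617 CPM in tau IP and 797 to 846 CPM in EYFP IP, without overlap, and had negative values in 10 of 10 cases with a median of -0.53. In the homogenates the same sum was 633 to 775 CPM in tau and 652 to 869 CPM in EYFP animals. The medians of 7 astrocyte, 6 oligodendrocyte and 6 microglia markers in tau IP against EYFP IP were -0.50, -0.49 and -0.55. Those of 6 cerebellar granule and 5 Purkinje cell genes were -0.08 and -0.30. The granule genes summed to 108.3 to 182.7 CPM in tau IP and 143.7 to 166.6 CPM in EYFP IP. The Purkinje genes summed to 120.4 to 317.1 and 199.9 to 313.5 CPM, so both overlapped. The sums of astrocyte genes (2450 to 4177 and 3527 to 4678 CPM), oligodendrocyte genes and microglia genes (95.66 to 146.8 and 144.9 to 170.7 CPM) overlapped as well. Those of 2 oligodendrocyte precursor genes did not (11.43 to 13.7 and 18.05 to 22.23 CPM). The medians thus differed between marker sets, while most of the sums overlapped. The part of other cell types in the receptor values was not tested.

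Whether IP over pre-IP differed between treatments was tested as an interaction over the 14 libraries, which uses the IP libraries of the preceding comparison again. No member passed (0 of 48, with 0.0% of 20495 genes called by edgeR), and 6 members had an unadjusted p below 0.05, where 5.97% of all genes did. The 3 largest positive values were Gabre (2.97, SE 0.76, edgeR adjusted p 0.479), Glra2 (1.99, SE 0.62, edgeR adjusted p 0.662) and Gabrq (1.60, SE 0.54, edgeR adjusted p 0.699). Gabrb2 (-1.004, edgeR adjusted p 0.82), Grm2 (-0.855, edgeR adjusted p 0.82) and Grin1 (-0.54, edgeR adjusted p 0.82) had the smallest p among the negative ones. Gabre passed with DESeq2 (adjusted p 0.0226, 1 member and 52 genes called), and without M (edgeR adjusted p 0.0361). With the animal as a block 0 members were called.

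In the homogenates themselves tau and EYFP animals were not separated. Of 48 members 0 passed (edgeR, 0.0% of 19197 genes), and 0 had an unadjusted p below 0.05 (2.84% of all genes); DESeq2 called 0 members. The smallest p-values were those of Grin2c (-0.52, SE 0.25), Grik5 (-0.54, SE 0.27) and Glrb (-0.26, SE 0.14) among the lower and Grm7 (0.12), Gabrr1 (0.43) and Glra3 (0.20) among the higher, each with an edgeR adjusted p of 1.0. Only Grik1, a kainate subunit gene, had groups that did not overlap, with 9.65 to 11.1 CPM in tau and 11.2 to 11.7 CPM in EYFP pre-IP (2.08% of members; 1.68% of all genes), and 0 members were higher without overlap (1.47% of all genes). Gabre, Gabrq and Glra2, which had the highest values in IP, had -0.09, 0.07 and -0.075 here.

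The homogenates were also compared by library number. The numbers run up to 11 for animals B, C, H and I and from 17 for K, L and M, and both treatments are in both ranges. Over the 47 members with more than 10 counts in every pre-IP library, the highest level was a median of 1.70 times the lowest, and 32 members stayed under 2-fold. The largest spreads among well-measured members were those of Gabra4 and Gabrd, whose subunits form extrasynaptic GABA-A receptors in thalamus and dentate gyrus; the delta subunit also takes part in those of cerebellar granule cells. Gabra4 (chromosome 5, 71569749 to 71658308) had 63.3, 62.5, 60.0 and 62.6 CPM in B, C, H and I and 14.4, 28.3 and 14.2 CPM in K, L and M. Gabrd (chromosome 4, 155384980 to 155398112) had 43.4, 45.0, 37.4 and 36.9 CPM in B, C, H and I and 10.2, 34.5 and 8.82 CPM in K, L and M. The ranges were apart for both genes, and K and M were lowest. The summed level of 6 cerebellar granule cell genes was 173.8, 193.9, 176.1 and 153.4 CPM in B, C, H and I and 103.6, 132.7 and 100.8 CPM in K, L and M, and 5 Purkinje cell genes summed to 227.5 to 381.4 and 106.1 to 212.9 CPM. Their part in the levels of the 2 receptor genes was not tested. In all, 19 of the 47 members had ranges that were apart between the 2 sets of numbers (40.4%, against 22.7% of the 16836 genes with more than 10 counts in every pre-IP library). Grin1 was among them in the other direction, with 98.7 to 107.7 CPM up to 11 and 112.2 to 146.2 CPM from 17.

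**Figure D5:**
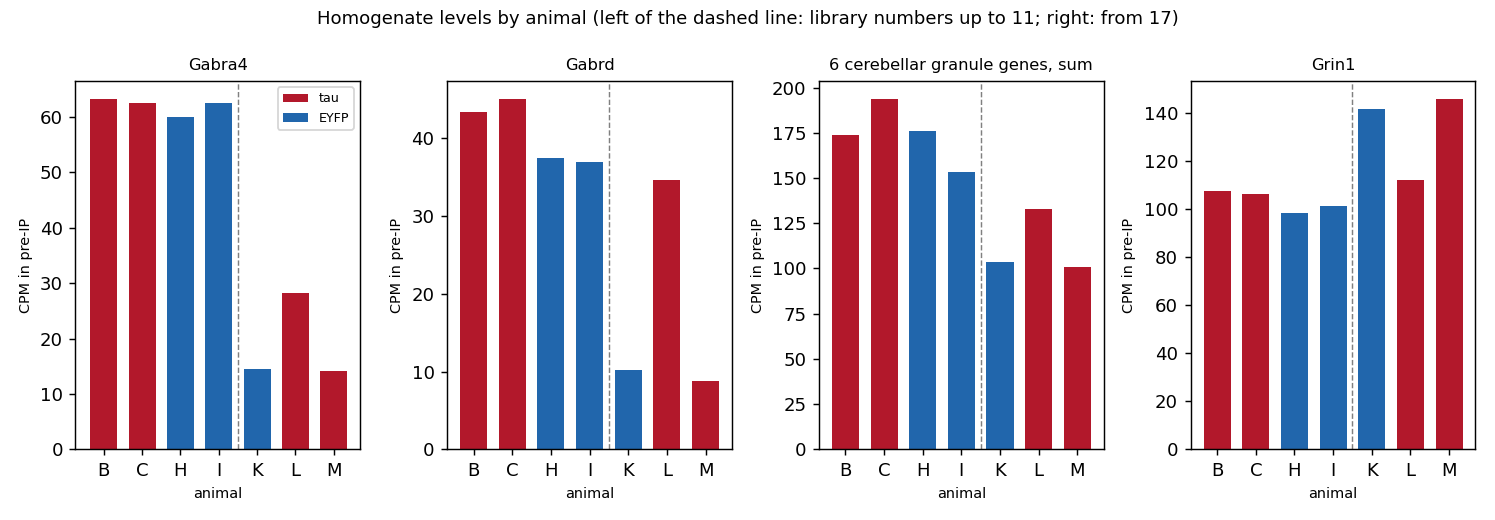
Pre-IP CPM by animal (bars start at 0; tau red, EYFP blue) for Gabra4, Gabrd, the sum of 6 cerebellar granule cell genes and Grin1, with the dashed line between library numbers up to 11 and from 17. Gabra4 was at 60.0 to 63.3 CPM to the left of the line and at 14.2 to 28.3 CPM to the right, while Grin1 was higher on the right.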

How the data were processed

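RNA was measured in 14 libraries from 7 mice. Per the labels' protocols, polyadenylated RNA was made into libraries with the SMART-Seq v4 and Nextera XT kits. FastQC, Trim Galore, STAR, featureCounts and the build GRCm38 are named in the submitters' processing notes; versions, use of strand and treatment of multi-mapping reads are not given in the sources used here. The deposited table holds raw read counts per gene, and the authors' sample sheet gives raw reads, RNA concentration, the percent of reads or bases of high quality, and the RNA integrity number, a quality score, per the file headers. Of count values from 1 to 10, 78.3% were even (n = 83219); the cause was not tested.

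Members, receptor partners and cell type markers were listed by symbol with earlier results of these data known. Genes passing filterByExpr were tested on the deposited counts in edgeR 4.0.16 (R 4.3.3) by quasi-likelihood F tests, with TMM scaling and Benjamini-Hochberg adjustment over all genes tested; the SE is the log2 fold change over the square root of F. The model for IP against pre-IP held fraction and treatment over all libraries, tau against EYFP used the libraries of 1 fraction, and the interaction used all libraries. Adjusted p-values come from these fits unless another tool is named. Log2 ratios per animal used a prior count of 2. Shares used the exon length of the deposited gene table, equal to GENCODE M21 for 51 of 51 members; the class shares and means carry no test. Members past the threshold, or else the 3 smallest p-values in each direction, were named, and of the partner genes the 2 largest changes in each direction. Kctd16 matched several identifiers and was left out. The labels give the animal by letter, which pairs its fractions; deviations from the group means correlated within all 7 animals (0.147 to 0.359). Within 1 fraction, p-values measure the spread between animals. In IP against pre-IP and in the interaction they measure the spread between libraries. There the 2 libraries of an animal count as independent, except in the fits with the animal as a block. Total counts of 41843489 to 65664551 leave imprecise mainly the members with few reads. Alternatives were DESeq2 1.42.0 (Wald test or size factors), limma 3.58.1 (voom), other filters, covariates, subsets, the replicate block and leaving out each animal. The fits were tested on simulated data. Some members count in the totals and class values but are not reported here by name.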

Additional observations from a re-analysis of the deposited data

Results flagged for a closer look

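A gap between the most extreme animal of a group and the next, large for the range of that group by Dixon's criterion, was found for 4 values among 96 groups of 4 tau libraries; chance gives about 1 in 20 groups, or 4.8 of 96. Grin1, the obligatory NMDA subunit gene, had 146.2 CPM in the tau pre-IP library of M, where the other 3 tau animals had 106 to 112 CPM. EYFP animal K had 141.7 CPM of it. Grin2d, an NMDA subunit gene of brainstem and interneurons, had 5.915 CPM in the tau pre-IP library of L, against 2.86 to 3.29 CPM in the other tau animals. Glra3 had 3.458 CPM in the tau pre-IP library of B, where C, L and M had 2.10 to 2.31 CPM. Gabrr1, a rho subunit gene, had 1.399 CPM in the tau IP library of B and at most 0.194 CPM in those of C, L and M.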

How the results depend on the processing

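In IP against pre-IP, 22 members were called; 13 to 21 were called when 1 animal was left out, 8 with library numbers up to 11 only and 8 with EYFP animals only. Partner genes called were 13, with 8 to 13, 4 and 3 under the same settings, and all genes 5828, with 2080 up to 11 and 1218 in EYFP animals only. Gabre reversed to -0.022 in EYFP animals alone. In the paired fit with the animal as replicate block, 22 members and 6119 genes were called, 19 members in both fits; Gabre, Grm8 and Grid1 were called only without it and Gabrd, Grm2 and Grin2c only with it. The block called 0 members in the interaction.

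In tau IP against EYFP IP, members called were 2 without a filter on low counts, 1 with all libraries in a single fit and 0 to 3 leaving out an animal; partner genes 2 with DESeq2, 1 without a filter, 2 in the single fit and 0 to 1 leaving out an animal; all genes 411 with DESeq2, 113 without a filter, 202 in the single fit, 41 with numbers up to 11, 6 from 17 and 0 to 128 leaving out an animal. In tau pre-IP against EYFP pre-IP, all genes called were 44 without a filter, 2 up to 11, 219 from 17 and 0 to 1 leaving out an animal, and the values of Gabrr1 and Glra3 reversed without K (-0.016 to 0.874 and -0.001 to 0.451 leaving out an animal; up to 1.93 and 0.525 over all settings). In the interaction, DESeq2 called 1 member and 52 genes, no filter 1 member, 1 partner and 67 genes, numbers up to 11 gave 4 genes, and leaving out an animal gave 0 to 1 members, 0 to 1 partners and 0 to 56 genes. The cause of these shifts was not tested.

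With the length of the longest transcript, shares averaged over animals were 58.5% for Gria1 in pre-IP, 18.85% and 11.97% for Gria2 in IP and pre-IP, 65.1% and 66.1% for Grin1, and 3.845% for Glra2 and 87.6% for Glrb in pre-IP. Low depth limits Gabrr1, Glra4 and Grin3b.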
